A study of Mus musculus with 2 samples.

Results

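The cells described here are CD8+ T cells of the mediastinal lymph node (MedLN), the node that drains the lung, that were selected on the transcripts of a memory-like CD8+ programme. A cell had to hold at least 3 of 6 markers: Eomes, a T-box transcription factor of memory CD8+ T cells and NK cells; Ly6c2, a Ly6C surface protein; Cxcr3, a receptor for interferon-induced chemokines; Nkg7, a cytotoxic granule protein; Ctla2a, a cysteine protease inhibitor; and the chemokine Ccl5. Before that, a cell had to carry UMIs (unique molecular identifiers, each counting 1 captured transcript) of a CD3 gene and at least 2 UMIs of Cd8a and Cd8b1 together. UMIs of Cd4, of the B cell receptor genes Cd79a and Cd79b, or of the cycling genes Mki67 and Top2a removed a cell. The rule found 799 of 18100 cells, 392 of 9495 in the library without butyrate and 407 of 8605 in the library with butyrate.

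Single-cell RNA-seq was performed on MedLN cells from wild-type C57/B6J mice with ovalbumin (OVA)-induced asthma, either untreated or treated with butyrate (named C4 in the labels), a short-chain fatty acid made by gut bacteria. All mice received 50 µg OVA with alum intraperitoneally on days 0 and 7 and OVA intranasally on days 14 to 16, and nodes were taken on day 17. The mice of the study were 5 to 13 weeks old. The methods give more than 1 butyrate regimen without saying which one these mice received. Cells of 4 mice were pooled into 1 library per condition, so mouse-to-mouse variation could not be measured. No test was made, and every interval below is a 95% interval for counting error only. A difference between the libraries therefore describes these 2 pools, and treatment and library preparation cannot be told apart.

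Memory CD8+ T cells are the long-lived progeny of activated or cytokine-driven CD8+ T cells. The central memory form keeps the lymph node homing receptors of naive cells and adds CD44, the IL-2 and IL-15 receptor chain CD122 (Il2rb) and the transcription factors EOMES and T-bet. Cells of this phenotype also arise without foreign antigen. Type I interferon, made during inflammation, induces a broad set of antiviral genes in almost every cell, T cells included.

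The gate on CD8+ T cells held 1413 cells without and 1275 cells with butyrate, and the marker rule then kept 27.7% (25.4 to 30.2) and 31.9% (29.4 to 34.6) of them. The log2 ratio of these shares, with over without butyrate, was 0.20 (-0.00 to 0.41), so the interval of the difference includes 0 at its lower edge. It excluded 0 under 5 of 15 alternatives, and the largest ratio was the one without the limit on Cd79a and Cd79b (0.25, 0.09 to 0.42). Among all cells the shares were 4.13% and 4.73%. Cells in the library with butyrate held more UMIs each: the selected cells had a median of 7949 UMIs without and 9340 UMIs with butyrate, and all gated cells 6441 and 7672. With every cell thinned to 2000 UMIs before the gate, 10.6% (8.95 to 12.4) and 12.0% (10.3 to 13.9) passed the rule, a log2 ratio of 0.18 (-0.16 to 0.52). The intervals of the 2 shares overlapped both at full depth and after thinning.

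The number of markers in a cell formed a continuum without a gap at the threshold. Without butyrate, 79, 543 and 399 gated cells held 0, 1 and 2 markers, and 181, 98, 77 and 36 held 3, 4, 5 and 6. With butyrate the numbers were 54, 481 and 333, and then 189, 101, 73 and 44. The 399 and 333 cells with 2 markers lay just outside the rule and the 181 and 189 cells with 3 markers just inside it. Depth moved with this number: the median was 4861 UMIs at 0 markers and 10043.5 at 6 markers without butyrate, and 6649.5 and 11657.5 with butyrate. After thinning, 106 of the 392 and 106 of the 407 selected cells still met the rule. Depth therefore takes part in who is selected. Levels are given below as CPM (UMIs of a gene per 1000000 UMIs of all genes, summed over the cells of a class). CPM does not scale with depth, but it does not correct which cells were selected.

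**Figure D1:**
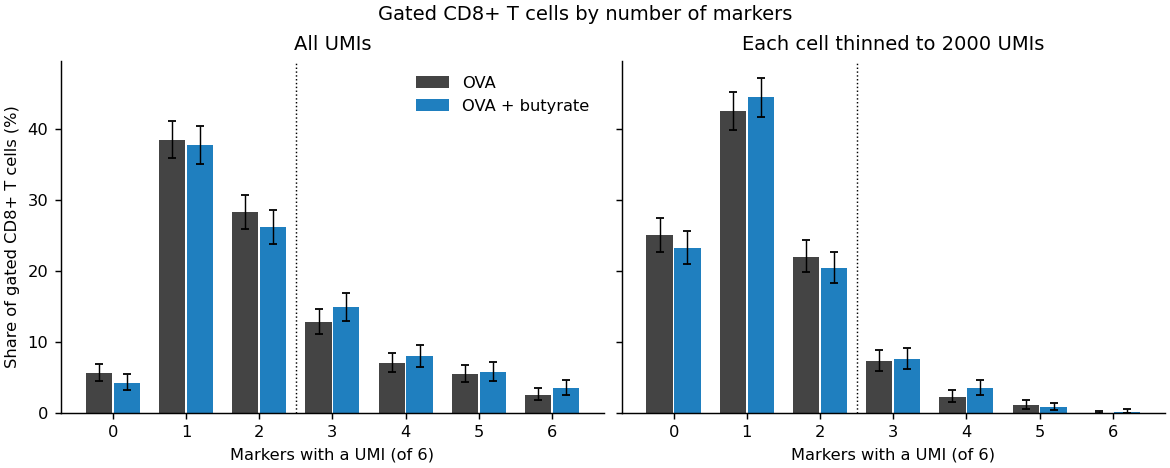
Share of gated CD8+ T cells (%) by the number of the 6 markers with at least 1 UMI, at full depth (left) and with each cell thinned to 2000 UMIs (right), for the library without (OVA) and with butyrate. Bars are shares with exact binomial 95% intervals, and the dotted line marks the rule: 27.7% and 31.9% of cells lie to its right at full depth, 10.6% and 12.0% after thinning.

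The markers that chose the cells were unequally shared among them, which is a description of the choice and no result. Nkg7 was found in nearly every selected cell (391 of 392 and 405 of 407) and Ly6c2 in 372 and 389. Among gated cells with 0 or 1 markers, 82.2% without and 86.9% with butyrate also held Nkg7. Eomes had UMIs in 227 and 287 of the cells, Cxcr3 in 167 and 186, Ctla2a in 188 and 171, and Ccl5 in 191 and 162. The most frequent combination in both libraries was Eomes, Ly6c2 and Nkg7 alone, in 81 and 101 cells. All 6 markers occurred together in 36 and 44 cells. Among cells with 3 markers the Ccl5 level was 146 CPM without and 254 CPM with butyrate, among cells with 4 markers 1232 and 209 CPM, and among cells with 6 markers 2483 and 1850 CPM.

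The label was checked with genes outside the rule, by comparing the selected cells with the 622 and 535 gated cells that held 0 or 1 markers. Of the 5 memory genes fixed for this check, with 10 CPM added to every level before a ratio was formed, Il2rb and Cd44 were at least 2-fold higher in both libraries, Il18r1 and Tbx21 (T-bet) were higher by less than that, and Id2, a regulator of effector T cells, was lower. Il2rb stood at 183 CPM against 40.4 CPM without butyrate and at 147 against 40.02 CPM with butyrate. Cd44 stood at 34.9 against 4.49 CPM and at 30.1 against 5.95 CPM. Il18r1, a chain of the IL-18 receptor, stood at 52.6 against 22.2 CPM and at 46.2 against 22.98 CPM, and Id2 at 99.9 against 126 CPM and at 80.0 against 135 CPM. Il2rb had a UMI in 61.2% and 57.7% of selected cells, against 19.9% and 21.7% of gated cells with 0 or 1 markers. In B cells, which held a median of 4406 and 4645 UMIs, the shares were 0.805% and 1.18%. Thinned to 2000 UMIs, 25% and 22.6% of selected cells had an Il2rb UMI, against 8.06% and 6.93% of gated cells with 0 or 1 markers.

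Genes of naive T cells remained abundant in the selected cells. Tcf7, a transcription factor of naive and memory cells, stood at 345 CPM against 351 CPM in cells with 0 or 1 markers without butyrate, and at 311 against 381 CPM with butyrate. Satb1, a chromatin organiser of T cells, and Dapl1 were also within 1.5-fold. Ccr7, the chemokine receptor for lymph node entry, was lower at 229 against 308 CPM and 261 against 301 CPM, and Lef1 was lower at 345 against 516 CPM and 341 against 495 CPM. The data thus bear out the label only in part, and the cells are called marker-positive CD8+ T cells below, meaning 3 or more markers.

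Seen by the number of markers, Il2rb was graded, and Cd44 and Tbx21 were higher at 6 markers than at 3. Il18r1 and Id2, the other memory genes of the check, are not given by marker number. Id2 was lower in the selected cells. Il2rb went from 46.4 and 39.7 CPM at 0 and 1 markers to 90.8 CPM at 3, 164 CPM at 4, 268 CPM at 5 and 404 CPM (341 to 476) at 6 without butyrate. With butyrate it went from 39.7 and 40.05 CPM to 73.4, 127, 216 and 313 CPM (267 to 366). The intervals at 3 markers and at 6 markers did not overlap in either library. Cd44 stood at 21.97 CPM at 3 markers and 75.8 CPM at 6 without butyrate, and at 12.2 and 64.6 CPM with butyrate. Tbx21 stood at 1.46 CPM at 3 markers and 42.1 CPM at 6 without butyrate, and at 4.28 and 27.4 CPM with butyrate.

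Gzmm, Klrk1 and Xcl1, picked after their values were seen, were higher at 6 markers than at 3. Other effector genes, such as Gzmk and Klrg1, had few UMIs in the selected cells and are given below. Gzmm, which encodes granzyme M, stood at 2.93 CPM at 3 markers and 70.1 CPM at 6 without butyrate, and at 0.612 and 142.9 CPM with butyrate. Klrk1, the activating receptor NKG2D, stood at 4.39 and 92.6 CPM without and at 1.83 and 62.6 CPM with butyrate. Xcl1, a chemokine for cross-presenting dendritic cells, stood at 2.93 and 126 CPM without and at 3.67 and 80.3 CPM with butyrate, where cells with 2 markers stood at 149 CPM, from 390 UMIs in 5 cells. Cells with 3 markers, 181 of 392 and 189 of 407, thus held few UMIs of these genes.

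Other genes ran the opposite way. Ccr9, a homing receptor for the gut that recent thymic emigrants and naive CD8+ T cells carry, stood at 148 CPM at 1 marker, 32.2 CPM at 3 and 0 CPM at 6 without butyrate. With butyrate it stood at 132, 39.7 and 3.92 CPM. Itgae (CD103, an integrin chain that binds E-cadherin) stood at 53.9 CPM at 1 marker and 2.81 CPM at 6 without butyrate, and at 66.9 and 1.96 CPM with butyrate. Lef1, a partner of Tcf7 in naive cells, went from 516 to 196 CPM and from 502 to 194 CPM between 1 and 6 markers, while Il7r did not follow the marker number. Tcf7 stood at 346 and 319.9 CPM without and at 383 and 270.1 CPM with butyrate at 1 and 6 markers. Dapl1 was highest at 2 to 3 markers, at 536 and 558 CPM without and 580 and 583 CPM with butyrate, and stood at 174 and 99.8 CPM at 6 markers.

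**Figure D2:**
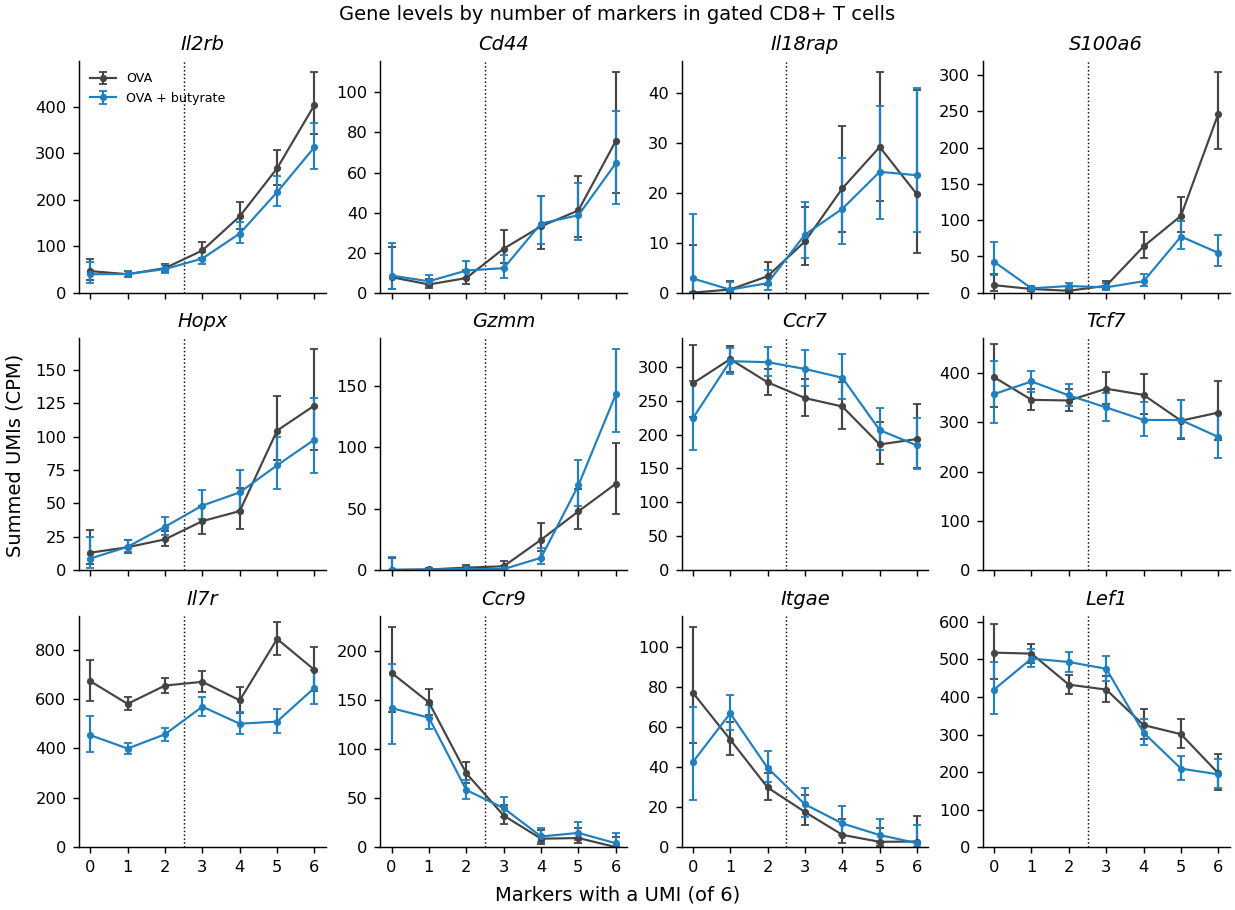
Levels (CPM, y axis from 0) of 12 genes outside the rule in gated CD8+ T cells by the number of markers, for the library without (OVA) and with butyrate. Points are sums over cells with exact Poisson 95% intervals, and the dotted line marks the rule. Il2rb, Cd44 and Hopx climb through the threshold, Gzmm and S100a6 are highest at 5 or 6 markers, and Ccr7, Ccr9, Itgae and Lef1 are lower at 6 markers than at 1.

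Over all genes with enough UMIs to be compared (50 or more over both libraries), 0.351% were at least 2-fold higher in marker-positive cells than in cells with 0 or 1 markers in both libraries (25 of 7128), and 0.112% were at least 2-fold lower (8 of 7128). These ratios include the same pseudocount of 10 CPM, which shrinks the ratios of low genes. The higher genes include 5 of the 6 rule genes. Besides Il2rb, Cd44, Gzmm, Klrk1 and Xcl1, they were Il18rap (the second IL-18 receptor chain), Hopx, S100a6 (a calcium-binding protein), Plac8, Ms4a4c, Itm2a, Runx2, Ahnak, Pglyrp1, Samd3, Ccl4, Ifitm10, Ifngas1 and the uncharacterised 1700025G04Rik and Gm33104. Of the 240 Ccl4 UMIs with butyrate, 164 were in 1 cell. Plac8 stood at 378 against 168 CPM without and at 318 against 142 CPM with butyrate. The lower genes were Ccr9, Itgae, Rgcc, Ramp1 (a co-receptor for the neuropeptide CGRP), Actn2, Slc6a19, Trat1 and 1700062C10Rik. Rgcc stood at 45.3 against 190 CPM and at 54.2 against 203 CPM.

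Against the 79 and 54 gated cells without any marker, the highest ratios among genes at 100 CPM or more were, after 5 rule genes, those of Plac8, Ms4a4c, Il2rb, Sidt1, Ifngr1 (the interferon-γ receptor chain), Ctsw, Rnf138, Dapl1, Bcl2 and AW112010. Ms4a4c stood at 229.7 against 51.5 CPM without and at 204 against 42.6 CPM with butyrate, and Ifngr1 at 212 against 97.9 CPM and at 160.5 against 53.9 CPM. The lowest were Ccr9, Rgcc, Ramp1, Itga4 (an integrin chain), Pdk1, Actn1, Lsm8, Tnrc6b, Cd74 and Cited2. Itga4 stood at 88.4 against 180.4 CPM without and at 66.0 against 125 CPM with butyrate.

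Of the 20 genes of the memory and activation list, 13 had enough UMIs, and 5 of them (Cd44, Il2rb, Il18rap, S100a6 and Hopx) were 2-fold higher in both libraries. Over all genes 25 of 7128 (0.351%) were. The list's median log2 ratio was 0.96 without and 0.77 with butyrate, against -0.02 and -0.05 over all genes. Its summed level was 1893 CPM in marker-positive cells and 1193 CPM in the 79 cells without any marker, a log2 ratio of 0.67 (0.53 to 0.80), in the library without butyrate. With butyrate the levels were 1596 and 1308 CPM, a log2 ratio of 0.29 (0.15 to 0.43). The gap between the libraries depends on the processing: with thinning the ratios were 0.61 without and 0.56 with butyrate, and without cells with UMIs of γδ T or NK cell genes 0.55 and 0.47. Thinned cells were classed anew, so the classes compared were not the same: 138 and 154 cells passed the rule and 326 and 299 held no marker. Crip1, a LIM-domain protein that cells with 0 or 1 markers also carried, gave 26.7% of the list's UMIs. Bcl2, the survival factor downstream of IL-7 and IL-15, stood at 432 against 249 CPM and at 445 against 290 CPM in marker-positive cells against cells with 0 or 1 markers.

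Cytotoxic granule genes summed to 1034 CPM in marker-positive cells and 754 CPM in cells with 0 or 1 markers without butyrate (log2 ratio 0.46, 0.38 to 0.53), and to 970.2 and 778 CPM with butyrate (0.32, 0.25 to 0.39). Some single effector genes, picked after their values were seen, had few UMIs. Gzmb, granzyme B, had 22 UMIs in 4 marker-positive cells without and 4 UMIs in 3 cells with butyrate. Gzmk had 12 and 6 UMIs, Klrg1, a receptor of terminal effector cells, 2 and 0, and the checkpoint receptor Pdcd1 4 and 1. Ifng, the effector cytokine of CD8+ T cells, had 31 UMIs in 19 cells and 55 UMIs in 20 cells. Among the cytokines Il2, Il4, Il10, Il13 and Il17a no UMI was found in either library, which allows up to 3 counts each, or 0.765% and 0.737% of cells with a UMI. Prf1 (perforin) was present at 50.7 and 52.4 CPM, against 34.5 and 41.4 CPM in cells with 0 or 1 markers.

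Markers of NK cells and B cells were far lower than in cells picked on such markers, though B cell transcripts were widespread. Cells with NK cell genes but no CD3 UMI numbered 11 and 12, and the 7 NK markers summed to 6546 and 6776 CPM in them, against 20.7 and 10.8 CPM in marker-positive cells. Ncr1, a defining NK receptor, had 3 UMIs without and 0 with butyrate in marker-positive cells. Trdc, the constant gene of the δ chain of the γδ T cell receptor, had UMIs in 12 and 11 marker-positive cells, of which 4 and 3 also had a γ constant gene, and the γδ T cell markers summed to 34.6 and 19.1 CPM, with no γδ T cell class to compare them with. B cell markers summed to 372 and 355 CPM, with 58.5% of these UMIs from Ighm, against 33622 and 36967 CPM in B cells, and Cd79a and Cd79b were at 0 by the rule. Igkc, an immunoglobulin light chain, had a UMI in 62.5% and 42.8% of marker-positive cells. Of CD4+ T cells, 3 of 877 and 7 of 747 carried 3 or more of the markers. The libraries shared 25 cell barcodes, and no marker-positive cell had its barcode in both.

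The receptor segments of these cells were varied. A Trbv segment, a variable segment of the β chain, was found in 90 of 392 and 95 of 407 marker-positive cells, with 20 and 18 segments seen. The most frequent was Trbv12-2, in 15.6% and 15.8% of those cells, and it was also the most frequent in cells with 0 or 1 markers, at 16.7% and 17.05%.

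Between the libraries, marker-positive cells differed in few genes. Of 7338 genes, 34 were at least 1.5-fold lower with butyrate (0.463%) and 4 at least 1.5-fold higher (0.0545%), and the median log2 ratio over all genes was -0.00. The split of higher and lower genes depends on the settings: with a pseudocount of 1 CPM it was 119 higher and 162 lower, and with ribosomal, mitochondrial and immunoglobulin genes left out of the totals 45 higher and 60 lower. Of the 34 genes of the interferon-response list, 33 had enough UMIs, 14 were at least 1.5-fold lower with butyrate and 0 were higher by that much. The list's median log2 ratio was -0.51, and 32 of the 33 were below 0.

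Interferon-response genes summed to 3848 CPM without and 2399 CPM with butyrate, a log2 ratio of -0.68 (-0.72 to -0.64). Ifi27l2a, an interferon-induced gene, stood at 759 CPM without and 369 CPM with butyrate, a log2 ratio of -1.02 (-1.11 to -0.93). Irf7, the transcription factor that amplifies interferon production, stood at 91.4 and 40.6 CPM (-1.002, -1.24 to -0.77). Isg15, a ubiquitin-like modifier, stood at 165 and 79.0 CPM (-0.97, -1.16 to -0.79). Ifit1, which binds foreign RNA, stood at 79.0 and 37.6 CPM, Rtp4, a chaperone of membrane receptors, at 86.6 and 42.6 CPM, and Usp18, which removes ISG15 from proteins, at 49.5 and 23.1 CPM. The antiviral factor Bst2 (tetherin) stood at 265 and 166 CPM and the nucleic acid sensor Zbp1 at 116 and 68.2 CPM. Ifi47 (234 and 191 CPM) was lower by less than 1.5-fold, and the antiviral GTPase Mx1 had a log2 ratio of -0.13 (-0.47 to 0.22). The 10 lowest ratios of genes at 100 CPM or more in a library, between -1.02 and -0.56, were those of Ifi27l2a, Isg15, Igkc, Ly6a, Ifi213, Zbp1, Bst2, Rnf213, Ifi208 and Gbp7.

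**Figure D3:**
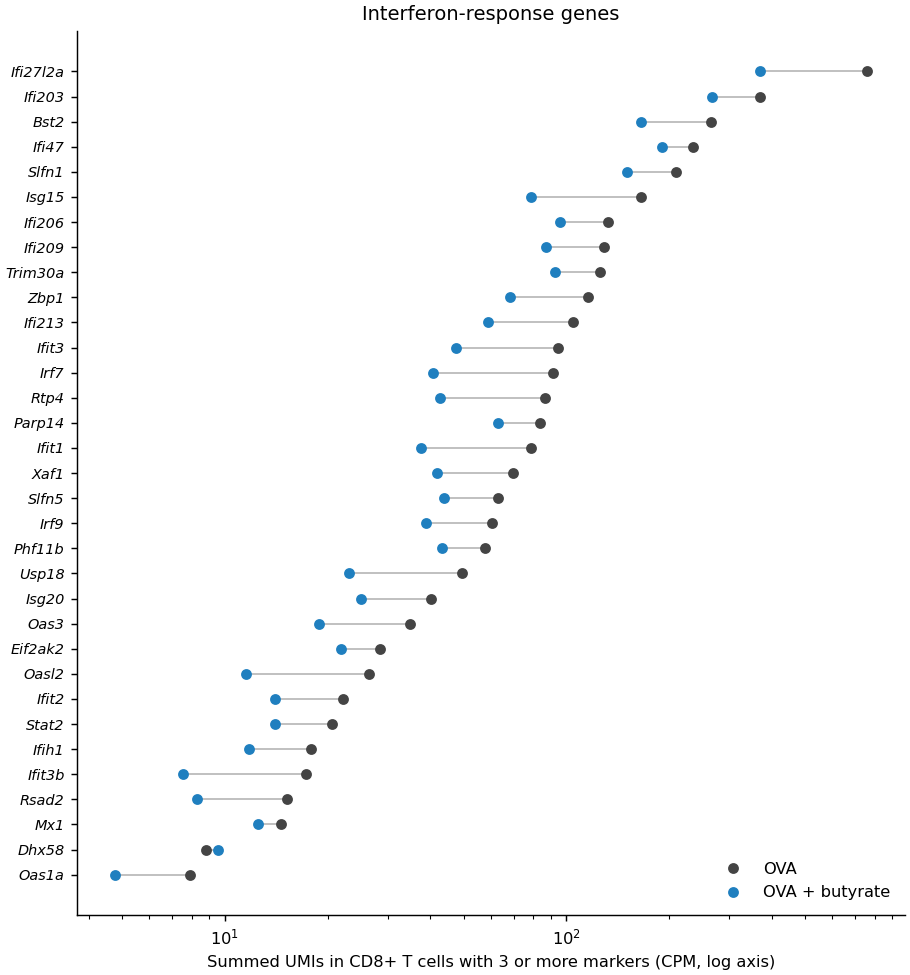
Levels (CPM, log axis) of 33 of the 34 interferon-response genes in CD8+ T cells with 3 or more markers, without (OVA) and with butyrate, ordered by level. Each line joins the levels of 1 gene in the 2 libraries: 14 genes past the UMI minimum are at least 1.5-fold lower with butyrate, and Dhx58 alone is higher, at 8.81 and 9.53 CPM.

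The promoters of these genes often hold the interferon-stimulated response element (ISRE), the site bound by the transcription factor complex that interferon activates. In the 250 bases before the start in RefSeq (GRCm38.p6), the letters GAAANNGAAA, on either strand, were found for 15 of the 26 interferon-response genes in the table, against 3.46% of all 27025 genes there. Overlapping matches were counted as 1 gene, and a match is a description, not a measured site. Among the 15 were Ifit1, Isg15, Bst2, Oas3, Stat2 and Rsad2. The stretches for Ifit1 (chr19:34640639-34640888, plus strand) and Isg15 (chr4:156200819-156201068, minus strand) are shown because both genes were lower with butyrate and each holds more than 1 match, 2 and 3. Capitals mark the matches, and the last base is the base before the start of the gene.
Ifit1: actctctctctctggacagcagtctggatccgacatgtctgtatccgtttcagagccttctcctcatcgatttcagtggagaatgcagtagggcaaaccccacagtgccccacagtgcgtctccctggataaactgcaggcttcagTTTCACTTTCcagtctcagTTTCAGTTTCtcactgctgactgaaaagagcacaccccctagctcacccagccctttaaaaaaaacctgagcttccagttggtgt
Isg15: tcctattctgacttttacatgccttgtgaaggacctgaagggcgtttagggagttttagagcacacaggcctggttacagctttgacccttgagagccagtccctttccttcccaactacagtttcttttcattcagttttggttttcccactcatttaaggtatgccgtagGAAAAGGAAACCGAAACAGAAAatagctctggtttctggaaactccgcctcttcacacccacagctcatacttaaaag
In Ifit1 the matches begin 104 and 85 bases before the start, and in Isg15 the first begins 78 bases before it and each of the 3 overlaps its neighbour.

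The interferon-response list was lower with butyrate in other cells as well. In cells with 0 or 1 markers the list stood at 3819 CPM without and 2389 CPM with butyrate, which gives -0.68 (-0.72 to -0.64) on the log2 scale. In the gated cells with 0 markers it stood at 4420.5 and 2168 CPM (-1.03, -1.15 to -0.90). In B cells it stood at 2694 and 1742 CPM, and in CD4+ T cells at 4692 and 2705 CPM. The 11 and 12 NK cells had 1913 and 1551 CPM, from only 59578 and 63165 UMIs of all genes. No interval is given for the B, CD4+ T and NK cells. Within marker-positive cells the ratio was -0.79 (-0.84 to -0.73) at 3 markers, -0.76 (-0.83 to -0.68) at 4 and -0.46 (-0.53 to -0.39) at 5 or 6. The intervals at 3 and at 5 or 6 markers do not overlap. The levels behind these were 4430 and 2569 CPM at 3 markers and 3174 and 2307 CPM at 5 or 6 markers.

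The difference was spread over the cells. With each cell thinned to 2000 UMIs, marker-positive cells held a median of 6 interferon-response UMIs without and 3 with butyrate, and the 10% of cells with the most held at least 16.9 and 10. Cells with at least 5 such UMIs made up 65.6% (60.6 to 70.3) in the absence of butyrate and 36.6% (31.9 to 41.5) in its presence. In cells with 0 or 1 markers the shares were 63.1% and 40.8%, and in cells with 5 or 6 markers 56.6% and 23.9%. The most in 1 marker-positive cell was 61 UMIs without and 68 with butyrate, so the few highest cells did not follow the median.

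**Figure D4:**
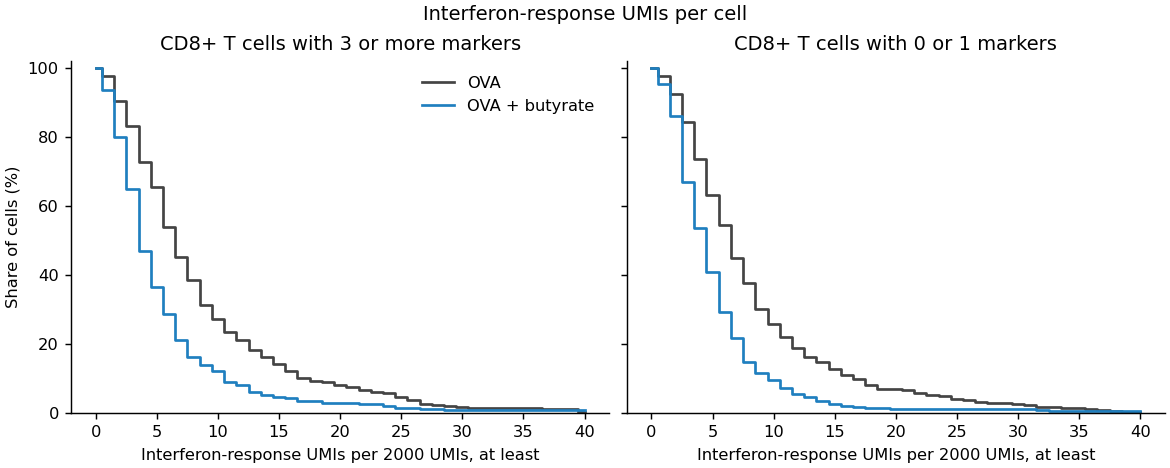
Share of cells (%) with at least the number of interferon-response UMIs on the x axis, after thinning to 2000 UMIs per cell, in CD8+ T cells with 3 or more markers (left) and with 0 or 1 markers (right), without (OVA) and with butyrate. The curve with butyrate lies to the left over most of its course in both, and the 2 meet in the far tail: at 5 UMIs it reads 36.6% against 65.6% on the left and 40.8% against 63.1% on the right.

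The interferon-γ inducible GTPases and guanylate-binding proteins, which attack intracellular pathogens, were also lower as a list. They summed to 560 CPM without and 408 CPM with butyrate (-0.46, -0.55 to -0.36), with 13 of 13 genes below 0 and none past 1.5-fold, and the ratio was the same in cells with 0 or 1 markers (-0.46, -0.56 to -0.37). The median log2 ratio of the 13 genes was -0.29, against -0.00 over all genes. Gbp7 stood at 101 and 65.2 CPM and Igtp at 111 and 81.5 CPM. MHC class I presentation genes were lower by little, at 8413 and 7747 CPM (-0.12, -0.14 to -0.10). Immediate early and heat shock genes summed to 6132 and 5312 CPM (-0.21, -0.23 to -0.18). Among them the NF-κB inhibitor Nfkbia stood at 215 and 146 CPM, and the heat shock co-chaperone Dnaja1 at 553 and 401 CPM.

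Memory and activation genes were lower with butyrate in marker-positive cells, at 1893 and 1596 CPM (-0.25, -0.30 to -0.20). In cells with 0 or 1 markers the list stood at 1338 and 1293 CPM (-0.05, -0.11 to 0.01), and the difference between the classes was not tested. Of its 15 genes with enough UMIs, 14 were below 0 and 3 past 1.5-fold: S100a6, Ly6a (Sca-1, itself induced by interferon) and Anxa2 (a membrane-binding annexin). Over all genes, 34 of 7338 (0.463%) were lower by that much, and the median log2 ratio was -0.00. S100a6 had 233 UMIs in 56 cells without and 120 UMIs in 41 cells with butyrate, with 35 of the 233 in 1 cell, and its log2 ratio was -1.01 with that cell and -0.82 without it. Ly6a stood at 131 and 65.2 CPM (-0.90), and was lower in cells with 0 or 1 markers as well, at 88.1 and 37.3 CPM. Anxa2 had 65 UMIs in 38 cells and 32 UMIs in 27 cells. Il2rb had a log2 ratio of -0.30 (-0.45 to -0.14) and Cd44 of -0.16 (-0.45 to 0.13), while Hopx had the same level in both libraries (63.5 CPM). After thinning and reapplying the rule, the list's ratio was -0.12 (-0.29 to 0.05), without cells with UMIs of γδ T or NK cell genes -0.16 (-0.21 to -0.11), and with 2 or more markers -0.15 (-0.19 to -0.11). The NK and γδ T cell markers were lower with butyrate in the same cells, and their values follow.

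NK receptor genes stood at 821 CPM without and 689 CPM with butyrate (-0.25, -0.33 to -0.18). The adaptor gene Hcst alone gave 55.1% of the list's UMIs. Of 10 genes with enough UMIs, 2 were past 1.5-fold, both lower, against 0.463% of all genes lower by that much. Klrk1 had 119 UMIs in 29 cells and 65 UMIs in 19 cells (-0.81, -1.11 to -0.50). Klra7 (Ly49G, an inhibitory receptor for MHC class I) had 70 UMIs in 20 cells and 31 UMIs in 13 cells (-0.81, -1.13 to -0.47). Markers of other cells moved with the list in marker-positive cells: the NK cell markers had a log2 ratio of -0.94 (-1.52 to -0.37) and the γδ T cell markers of -0.86 (-1.30 to -0.43), and their part in it was not tested. Single cells weigh on both: 23 of the 68 NK marker UMIs were in 1 cell, leaving 45 against 43, and 20 of the 77 Trdc UMIs were in 1 cell, without which the Trdc ratio went from -0.58 to -0.30 (-0.63 to 0.05). Klrd1 (CD94) stood at 228 and 182 CPM (-0.31, -0.45 to -0.17). In cells with 0 or 1 markers the NK receptor list had a ratio of 0.07 (-0.02 to 0.16), and in the subset with 0 markers of -0.42 (-0.73 to -0.11). Within marker-positive cells it was -0.04 (-0.18 to 0.09) at 3 markers, -0.43 (-0.59 to -0.26) at 4 and -0.31 (-0.43 to -0.20) at 5 or 6. Ikzf2 (Helios, a transcription factor of regulatory T cells that also occurs in CD8+ T cells) was the only past-fold gene of 13 on the transcription factor list with enough UMIs. It had 121 UMIs in 44 cells without and 55 UMIs in 25 cells with butyrate (-0.97, -1.28 to -0.66).

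Cytotoxic granule genes had a summed log2 ratio of -0.09 (-0.16 to -0.03). Of 12 with enough UMIs, only Gzma (granzyme A) was past 1.5-fold, with 77 UMIs in 25 cells and 38 UMIs in 23 cells. Of the 77 UMIs, 23 were in 1 cell, and the log2 ratio went from -0.77 to -0.44 without it. Ctsw, a granule-associated protease, stood at 254 and 273 CPM, and the proteoglycan Srgn at 411 and 372 CPM. Ccl4, an inflammatory chemokine, was 1 of the 4 genes higher with butyrate, but 164 of its 240 UMIs there were in 1 cell. Its log2 ratio was 0.83 (0.56 to 1.10) with that cell and -0.44 (-0.75 to -0.12) without it. The other 3 higher genes were Zxdc, Gm47283 and 1700062C10Rik, at log2 ratios of 0.72, 0.62 and 0.66.

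Naive T cell genes summed to 5112 and 4827 CPM (-0.08, -0.11 to -0.05), with 0 of 15 past 1.5-fold. Igfbp4, an insulin-like growth factor binding protein, had the highest ratio of any gene that reached 100 CPM in a library, at 85.4 and 123 CPM (0.48, 0.28 to 0.67), and it was also higher in cells with 0 or 1 markers, at 156 and 204 CPM. Ccr7 stood at 229 and 261 CPM (0.18, 0.05 to 0.31). Il7r, the IL-7 receptor chain, stood at 697 and 549 CPM (-0.34, -0.42 to -0.25), and at 591 and 405 CPM in cells with 0 or 1 markers. After Igfbp4, the highest ratios at that level were those of Tkt (a pentose phosphate enzyme), Arhgdia, Npm3, the cold-inducible RNA-binding protein Rbm3, Marc2, Hdac7, Rsl1d1, Ppp1cc and the rule gene Eomes, between 0.43 and 0.28. Hdac7, a class IIa histone deacetylase, stood at 86.9 and 111 CPM (0.32, 0.12 to 0.51).

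**Figure D5:**
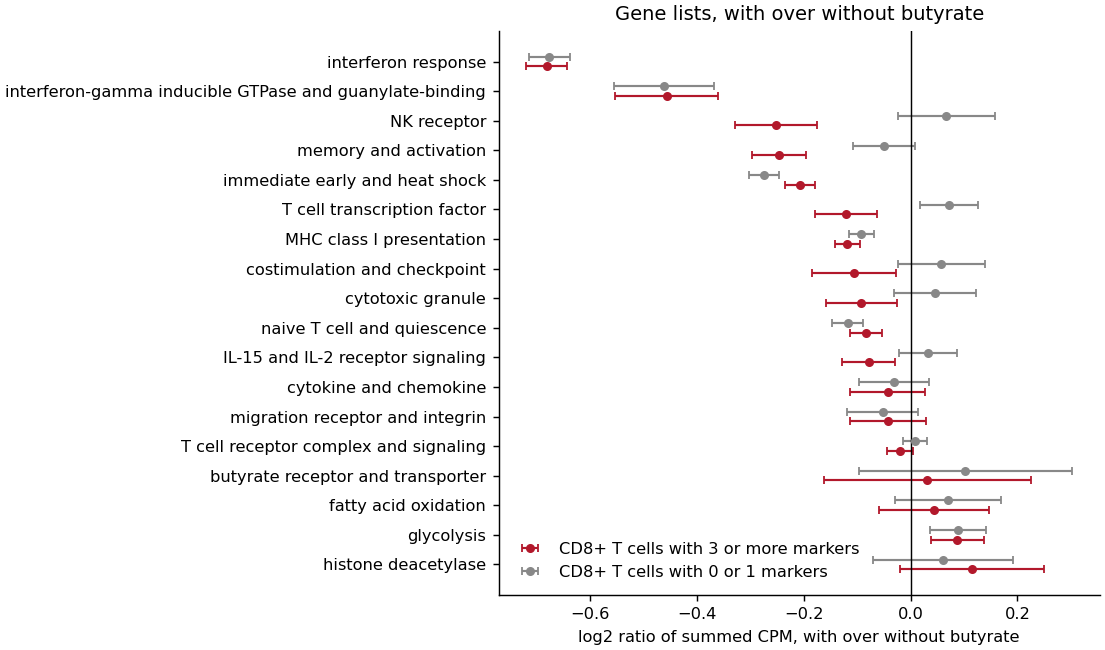
Log2 ratio of summed CPM, with over without butyrate, of 18 gene lists in CD8+ T cells with 3 or more markers (red) and with 0 or 1 markers (grey), with 95% counting intervals. The interferon lists lie farthest from 0 in both classes (-0.68 and -0.46), and the difference between red and grey points was not tested for any list.

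Of the 7 butyrate receptor and transporter genes, 3 were detected. The receptors Ffar2 (GPR43), Ffar3 and Hcar2 and the transporter Slc5a8 had 0 UMIs in marker-positive cells of both libraries, which allows up to 0.911 CPM without and 0.752 CPM with butyrate. The transporter Slc16a1 (MCT1) stood at 15.2 and 15.1 CPM, and its partner Bsg (basigin) at 105 and 108 CPM. Histone deacetylases, which butyrate is known to inhibit, summed to 241 and 261 CPM (0.11, -0.02 to 0.25), with none of 7 past 1.5-fold. Fatty acid oxidation genes (421 and 434 CPM) and T cell receptor genes (7371 and 7269 CPM) differed by less than their counting intervals, and glycolysis genes stood at 1797 and 1909 CPM (0.09, 0.04 to 0.14). IL-15 and IL-2 receptor signaling genes had a ratio of -0.08 (-0.13 to -0.03), costimulation and checkpoint genes of -0.11 (-0.18 to -0.03), cytokine and chemokine genes of -0.04 and migration genes of -0.04.

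Immunoglobulin genes, which T cells do not transcribe, also differed between the libraries. Igkc stood at 120 and 58.7 CPM in marker-positive cells, and Ighg1, a heavy chain of plasma cells, had 57 UMIs in 54 cells without and 1 UMI with butyrate. The plasma cell list as a whole had 109 and 4 UMIs (33.1 and 1.003 CPM), with Sdc1 and Tnfrsf17 at 0, and B cells held 2587 and 306 CPM of it. The part of such RNA in the other differences was not tested, and the interferon-response genes in it were not measured apart.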

How the data were processed

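The study prepared single-cell libraries from MedLN cells pooled from 4 mice per condition. The authors deposited raw UMI counts per gene and cell, made with Cell Ranger 6.0.1 per the labels, for 31053 genes. The genome build is not given in the sources used here. Totals were 59176459 and 58381292 UMIs in 9681 and 8932 cells.

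Everything else was computed from these counts in Python 3.11.15 (numpy 2.4.6, scipy 1.17.1). A cell was kept with 200 or more genes and at most 10% of its UMIs from mitochondrial genes. The markers, gene lists and rules were chosen with earlier results of these data known. B cells had no CD3 UMI and at least 2 UMIs of Cd79a and Cd79b; NK cells had no CD3, Cd79, Mki67 or Top2a UMI and UMIs of Nkg7 and of Ncr1 or Klrb1c. Doublets were not removed in the main values, since the gate takes out cells with CD3 and Cd79 UMIs together, which took 2175 to 1498 and 2036 to 1340 CD8+ T cells. The doublet caller Scrublet (scanpy 1.11.5), with a doublet rate that grows with the number of cells, marked 4 of 392 and 2 of 407 marker-positive cells.

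Counts were summed over cells and given as CPM. Log2 ratios of single genes have a pseudocount of 10 CPM, for genes with 50 or more UMIs over both libraries, and ratios of summed lists have none. "Past 1.5-fold" and "2-fold" are sizes, not tests. Shares have exact binomial (Clopper-Pearson), sums exact Poisson and ratios exact conditional intervals at 95%. For a 0, the limit given is 3 counts. PCR copies share a UMI, so these cover counting of molecules only, and UMIs of a gene that sit in 1 cell make them too narrow. Shares across depths were repeated with cells thinned to 2000 UMIs. Ratios were checked on simulated counts, and the outcome is not reported here. Named are the rule genes, list genes (of long lists those with the highest level and those past 1.5-fold), and at 100 CPM or more the 10 highest and 10 lowest ratios between libraries and the 15 highest and 10 lowest against cells without markers. The genes past 2-fold against cells with 0 or 1 markers, and the ones followed by marker number or named for scarce effector functions, were picked after their values were seen. Alternatives changed the doublet, mitochondrial and gene filters, the depth, the number and choice of markers, the exclusion of γδ T and NK genes, the Cd79 limit, the scaling, the pseudocount and the UMI minimum. Some list genes count in the sums and are not reported here by name.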

Additional observations from a re-analysis of the deposited data

Results flagged for a closer look

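Of the gene lists, 2 had counting intervals that exclude 0 in opposite directions in marker-positive cells and in cells with 0 or 1 markers, and the difference was not tested. The T cell transcription factor list had a log2 ratio, with over without butyrate, of -0.12 in marker-positive cells and 0.07 in cells with 0 or 1 markers, from 4493 and 5003 UMIs and from 5359 and 5847 UMIs. The NK cell marker list had a log2 ratio of -0.94 in marker-positive cells, from 68 and 43 UMIs, and 23 of the 68 were in 1 cell, without which 45 remain. In cells with 0 or 1 markers its log2 ratio was 2.66, from 9 and 59 UMIs, and 52 of the 59 were in 1 cell.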

How the results depend on the processing

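The log2 ratio of the shares of marker-positive cells kept its sign in every alternative, between 0.05 (2 or more markers) and 0.25 (no Cd79 limit). Its interval, which includes 0 in the report, excluded 0 under 5 of 15 alternatives: no Cd79 limit (0.09 to 0.42), no γδ T or NK cell genes (0.03 to 0.44), Scrublet (0.01 to 0.42), and the rule without Ctla2a (0.02 to 0.45) or without Ccl5 (0.03 to 0.45). The number of genes past 1.5-fold was 38 of 7338 tested in the report, 68 of 1216 with thinning, 75 of 5986 with 4 or more markers, 281 with a pseudocount of 1 CPM, 19 of 3487 with 200 or more UMIs and 105 with scaling without ribosomal, mitochondrial and immunoglobulin genes. The interferon-response ratio of -0.68 became -0.62 with thinning, -0.76 with 2 or more markers, -0.59 with 4 or more and -0.80 without the Cd79 limit. The memory and activation ratio of marker-positive over marker-negative cells, 0.67 without butyrate, became 0.47 with 2 or more markers, 0.87 with 4 or more, 0.50 without the Cd79 limit and 0.50 against cells with 0 or 1 markers. With butyrate the ratio of 0.29 became 0.56 with thinning, 0.47 without γδ T or NK cell genes, 0.45 with at most 5% mitochondrial UMIs, 0.44 with 4 or more markers and 0.18 with 2 or more. Under thinning the cells were classed anew, and 299 cells with butyrate then held no marker, against 54 at full depth. The same list, with over without butyrate, went from -0.25 to -0.12 with thinning, -0.15 with 2 or more markers, -0.30 with 4 or more and -0.16 without cells with γδ T or NK cell genes, and both this ratio and its alternatives were chosen after seeing the data. Without the cell with most UMIs of the gene, Ccl4 went from 0.83 to -0.44, Gzma from -0.77 to -0.44, Ifi27l2a from -1.02 to -1.11 and Ifit3 from -0.86 to -1.14. The cause of these shifts was not tested. No paired analysis was possible because each condition has 1 library, so no replicate could be left out either.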

Other observations

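The UMIs of Ly49 receptors, Klrk1 and Ikzf2 sat in small sets of marker-positive cells, a pattern chosen after the values were seen. The Ly49 receptors counted were Klra1, Klra3, Klra6 and Klra7. Klra9, another Ly49 receptor with 11 UMIs in marker-positive cells with butyrate, was not counted. A UMI of a counted receptor (a Ly49 UMI) was present in 36 of 392 cells (9.18%, 6.52 to 12.5) without and 25 of 407 (6.14%, 4.01 to 8.93) with butyrate. Most of these had 5 or 6 markers: 24 of 113 and 20 of 117 such cells, against 12 of 279 and 5 of 290 cells with 3 or 4. Ikzf2 was present in 44 and 25 cells, and in 9 and 5 cells together with a Ly49 UMI. Klrk1 was present in 8 and 4 of the cells with a Ly49 UMI.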
